A study of Mus musculus with 21 samples.

Results

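Skin transcripts for the constant parts of antibodies, and for the joining chain that links antibody units, were followed here through chronic graft-versus-host disease with skin sclerosis in transplanted mice. The genes were chosen by name: the kappa light chain Igkc, the lambda light chains Iglc1 and Iglc2, the joining chain Jchain, and the heavy chains Ighm, Ighg1, Ighg2b, Ighg2c, Ighg3 and Igha. All 10 were rows of a count table of 64050 gene symbols. RNA had been sequenced from a 3 mm skin area in 21 libraries of 5 groups. Recipients were BALB/c mice of 8 weeks, irradiated with 700 cGy and given bone marrow, and skin was taken 7 weeks after transplantation. The Syn group (4 libraries) had BALB/c marrow and an isotype control antibody, a mouse IgG2a with LALA-PG changes in its Fc part. The other groups had B10.D2 marrow, which matches BALB/c at H-2d but differs at minor antigens, and are the diseased groups. They received the same isotype antibody (Allo, 4 libraries), the IL1RAP-blocking antibody mCAN10 (mCAN10, 4 libraries), water (Allo_H, 4 libraries) or the kinase inhibitor nintedanib (Nin, 5 libraries). Treatment began on day 21. Both antibodies were injected at 20 mg/kg first and 10 mg/kg thereafter, and the protocol text gives nintedanib as 50 mg/kg daily by mouth, while the series design describes injections for all arms. The labels give all recipients as Balb/c and do not tell donor from host cells, nor do they state that each library came from a separate mouse, so p-values measure the spread between libraries.

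An antibody is built of 2 heavy and 2 light chains, and the heavy chain constant gene sets its class: Ighm for IgM, Ighd for IgD, Ighg genes for IgG and Igha for IgA. Naive B cells carry IgM and IgD, and activated B cells can switch to IgG, IgA or IgE by deleting the DNA in between. Plasma cells, the end stage of that lineage, fill a large part of their messenger RNA with immunoglobulin transcripts, and Jchain is needed to join IgM and IgA into polymers. Transcription of Ighm can also start downstream of the variable segments and then makes no antibody. Inbred mouse strains differ at the heavy chain locus: C57BL-derived strains such as B10.D2 carry Ighg2c where BALB/c carries Ighg2a. The table had a row for Ighg2c and none for Ighg2a.

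Constant genes of one family resemble each other, so the deposited counts can be read by gene only where the transcripts differ. In the GENCODE M21 transcripts (build GRCm38), the genes lie on chromosome 12 (heavy chains), 6 (Igkc), 16 (lambda) and 5 (Jchain). The files used build GRCm39, so no coordinates are given. The first 60 aligned bases of the 4 IgG genes are shown because the split of the IgG counts below rests on such differences, with capitals marking the 22 positions where the 4 differ.
Ighg1: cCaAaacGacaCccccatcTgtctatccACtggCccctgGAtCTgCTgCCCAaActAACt
Ighg2b: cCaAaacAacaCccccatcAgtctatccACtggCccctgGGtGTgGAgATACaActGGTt
Ighg2c: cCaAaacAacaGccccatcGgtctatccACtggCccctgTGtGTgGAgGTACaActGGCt
Ighg3: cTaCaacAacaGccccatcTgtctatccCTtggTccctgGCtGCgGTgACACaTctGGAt
The lambda genes are shown for the same reason, with capitals at the 13 of 60 positions where the 3 differ.
Iglc1: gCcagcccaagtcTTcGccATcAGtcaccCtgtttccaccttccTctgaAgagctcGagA
Iglc2: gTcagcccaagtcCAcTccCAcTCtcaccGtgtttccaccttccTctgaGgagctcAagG
Iglc3: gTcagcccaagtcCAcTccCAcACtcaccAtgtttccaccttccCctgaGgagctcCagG
Over the whole transcripts, Ighg2b and Ighg2c were 86.2% identical with a longest shared run of 78 bases, and Iglc2 and Iglc3 were 94.1% identical with a run of 79 bases. The other pairs within a family were 66.6% to 74.5% identical. No pair shared a 150-base window. Reads shorter than these runs could still be placed on either gene, and the sources used here give no read length. These are C57BL/6 sequences, so reads from BALB/c alleles that differ may have been lost or placed on a neighbour. That was not tested.

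The deposited values were raw read counts per gene, 17130264 to 32899212 per library. Levels below are CPM, counts scaled to a common library size, with sizes adjusted by the trimmed mean of M-values (TMM). The libraries had been counted in 2 runs with different gene names, 1 holding Syn, Allo and mCAN10 (12 libraries) and 1 holding Allo_H and Nin (9 libraries), so groups were compared only within a run. Differences were tested with edgeR's quasi-likelihood test over all 20462 genes that passed its filter on low counts, and a gene is said to have risen or fallen where the Benjamini-Hochberg adjusted p was under 0.05. Of the 10 members, 8 passed the filter, and Ighg2c and Ighg3 did not. A member that passed through the group where it is high was bound to differ, so counts of members are descriptions only. The standard error (SE) of a log2 fold change was derived from the test statistic, and the spread between libraries was estimated over all 21, so it may be too small for the more variable groups. In skin pieces, fewer cells of a type and less RNA per cell cannot be told apart. Allo replicate 3 stood apart for these genes and is given by itself below.

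Immunoglobulin transcripts were scarce in skin after syngeneic transplantation, apart from Ighm, and were abundant in 3 of the 4 diseased libraries given the isotype antibody. Together the 10 genes took 0.00565% to 0.00669% of all counts in the 4 Syn libraries. In Allo they took 0.109% (95% Wilson interval 0.108% to 0.11%), 0.158% (0.156% to 0.16%), 0.000805% (0.000702% to 0.000923%) and 0.012% (0.0115% to 0.0125%) in replicates 1 to 4. These intervals cover counting error only. Most of the Syn share was Ighm. With Ighm left out of the sum, the share was 0.000136% to 0.000397% in Syn. In Allo it was then 0.106%, 0.155%, 0.000189% and 0.0112% in replicates 1 to 4, so replicate 3 lay within the Syn range. Of the 8 tested members, 6 rose and 1, Ighm, fell in Allo against Syn, where 13.8% of all genes tested rose and 8.8% fell (22.6% either way). The tested rows include 785 without a count in the first run, which lowers these shares. They also include 2545 without a count in the second run, which lowers the shares given below for Nin against Allo_H.

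**Figure D1:**
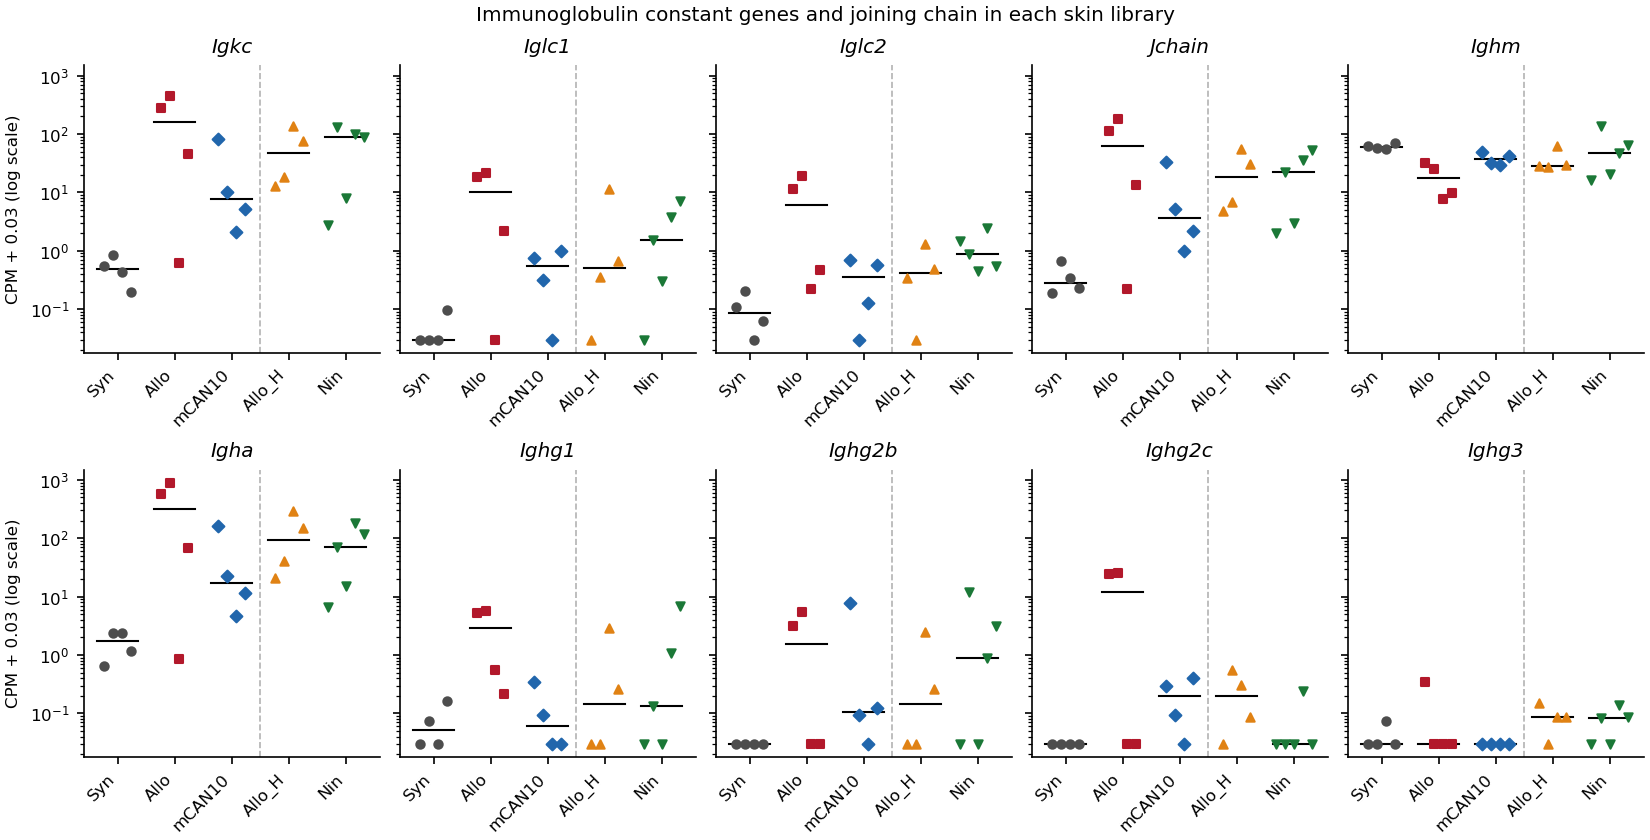
CPM of the 10 members in each of the 21 libraries (points, log axis with 0.03 CPM added so that zeros can be drawn), by group, with the group median as a bar. The dashed line parts the 2 counting runs, across which levels are not compared. The third Allo library lies at the Syn level for Igkc, Jchain and Igha, while Ighm is highest in Syn within the first run.

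Igkc, the constant part of the kappa light chain that most mouse antibodies use, was at 0.507, 0.815, 0.403 and 0.164 CPM in the 4 Syn libraries. In Allo it was at 279.8, 446.8, 0.580 and 46.1 CPM. Replicates 1, 2 and 4 lay far above every Syn library, while replicate 3 lay within the Syn range, so the groups overlapped. Igkc rose by 8.69 ± 1.89 (SE) on the log2 scale (edgeR adjusted p = 0.00314). The value ran from 7.85 without Allo replicate 2 to 9.10 without Allo replicate 3.

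Jchain, which joins IgA and IgM units, followed the same libraries. It was at 0.156, 0.643, 0.313 and 0.196 CPM in Syn and at 112, 180.0, 0.193 and 13.1 CPM in Allo. Allo replicate 3 again lay within the Syn range. Jchain rose by 7.87 ± 1.80 on the log2 scale (adjusted p = 0.00435), with 6.99 without Allo replicate 2 and 8.41 without Syn replicate 2.

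Igha, the heavy chain of IgA, was the heavy chain gene with most counts in Allo replicates 1, 2 and 4. Its levels were 0.624, 2.32, 2.33 and 1.14 CPM in Syn and 577, 899, 0.822 and 67.9 CPM in Allo. The groups overlapped through Allo replicate 3, whose 17 Igha counts lay beside 16 to 54 in Syn. Igha rose by 7.92 ± 1.78 on the log2 scale (adjusted p = 0.00386), with 7.06 without Allo replicate 2 and 8.33 without Allo replicate 3.

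The lambda light chains moved with kappa at lower levels. Iglc1 had no count in 3 Syn libraries and 0.0654 CPM in the fourth, against 18.2, 21.7, 0 and 2.13 CPM in Allo. The groups overlapped, since Allo replicate 3 had no Iglc1 count either. Iglc1 rose by 8.71 ± 2.28 on the log2 scale (adjusted p = 0.0101), and by 8.07 to 10.77 when 1 library was left out, the highest without Syn replicate 4, which held the only Syn counts. Iglc2 was at 0.0780, 0.172, 0 and 0.0327 CPM in Syn and at 11.4, 19.2, 0.193 and 0.438 CPM in Allo. Here every Allo library was above every Syn library, though by a few counts in replicates 3 and 4. Iglc2 rose by 6.70 ± 1.49 (adjusted p = 0.00362), with 5.73 without Allo replicate 2 and 7.48 without Syn replicate 2. Iglc3, a near copy of Iglc2 whose exons overlap the gene 2010309G21Rik, also rose, by 3.62 ± 1.25 (adjusted p = 0.0434). That call was lost without any 1 of the Syn libraries (adjusted p from 0.0574 to 0.111), without Allo replicate 2 (0.172) or 4 (0.0868), and with no filter (0.0755). Iglc4 had no count in any library.

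IgG transcripts were few and concentrated in Allo replicates 1 and 2. Ighg1 had 0, 1, 0 and 4 counts in Syn and 114, 108, 11 and 3 counts in Allo, or 5.23, 5.62, 0.532 and 0.188 CPM. Scaled to CPM the groups did not overlap, with the lowest Allo library at 0.188 CPM and the highest Syn library at 0.131 CPM. Ighg1 rose by 5.77 ± 1.97 on the log2 scale (adjusted p = 0.0411), and that call was lost without Allo replicate 1 (0.0785) or 2 (0.0879), without any 1 Syn library (0.067 to 0.102), and with no filter on low counts (0.0585). Ighg2b had no count in Syn and 67, 106, 0 and 0 counts in Allo, a level at least 75.6-fold higher when Syn is set to 3 counts over the group. It did not pass edgeR's test (adjusted p = 0.0925) and did pass DESeq2's (adjusted p = 0.0357). Ighg2c had no count in Syn and 521, 484, 0 and 0 counts in Allo, at least 439-fold higher by the same floor, and it did not pass the filter on low counts, which is set over all 21 libraries. Fitted without the filter, its edgeR adjusted p was 0.00458. Syn mice were BALB/c in both marrow and host, a strain that carries Ighg2a in place of Ighg2c. A count of 0 would follow there from the strain alone. The bound and the adjusted p for Ighg2c therefore do not measure a rise in its transcripts. Ighg3 had at most 7 counts in any library. Ighe, the IgE gene, had 2 counts in Allo replicate 2, 6 in Allo replicate 3 and none elsewhere.

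Ighm went the other way. It was at 61.7, 56.5, 54.5 and 70.3 CPM in Syn and at 31.8, 25.2, 7.54 and 9.75 CPM in Allo. All 4 Allo libraries lay below all 4 Syn libraries, whether rich in Igkc or not. Ighm fell by 1.71 on the log2 scale (SE 0.55, adjusted p = 0.0316). Without Syn replicate 1, 2 or 4, or Allo replicate 3 or 4, the adjusted p was between 0.0509 and 0.0954, with the fold change between -1.45 and -1.74. Ighd, the IgD gene that is transcribed together with Ighm, was at 1.21 to 1.504 CPM in Syn and 0.0484 to 0.229 CPM in Allo, and fell by 3.23 (SE 0.72, adjusted p = 0.00362). Groups that did not overlap were found for Iglc2 and Ighg1 (higher, beside 16.8% of all genes tested) and for Ighm (lower, beside 12.5%).

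**Figure D2:**
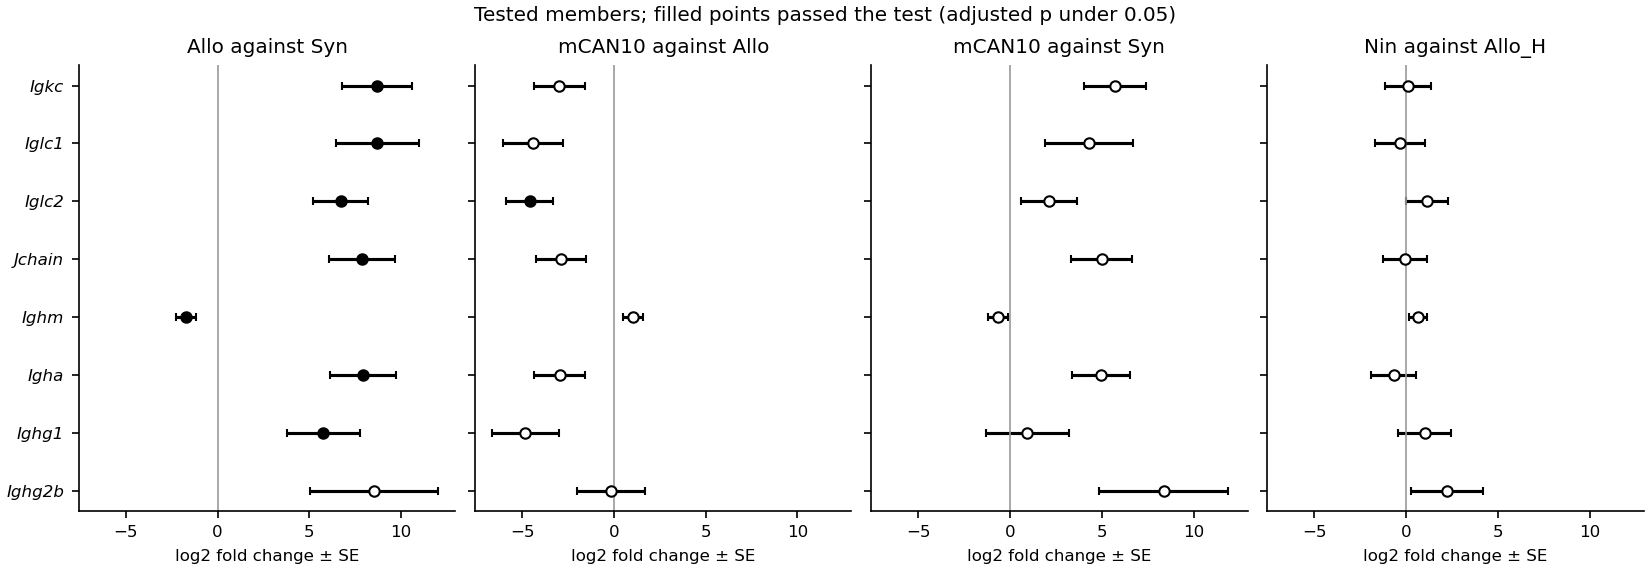
Log2 fold change of the 8 tested members in the 4 comparisons (points, with SE as bars, edgeR quasi-likelihood fit of all 21 libraries). Filled points passed the test at an adjusted p under 0.05, which was 7 members in Allo against Syn, Iglc2 in mCAN10 against Allo and none in the other comparisons. Ighg2b had no count in Syn, so its values against Syn depend on the fit and are no bound.

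In mice given mCAN10, the antibody against the shared IL-1, IL-33 and IL-36 receptor chain, the median level of each of the 8 tested members lay between those of Syn and Allo, and replicate 1 was far above the rest for Igkc, Jchain, Igha and Ighg2b. Against Allo, edgeR called no member higher and 1, Iglc2, lower, where 5.58% of all genes tested rose and 5.19% fell (10.8% either way). All 8 members overlapped between mCAN10 and Allo, whereas 12.2% of all genes tested were higher and 10.9% lower without overlap. At an unadjusted p under 0.05, 0 members were higher and 6 lower, and DESeq2 called 0 higher and 1 lower. Against Syn, edgeR called none of the 8 members, where 0.777% of all genes tested rose and 0.0342% fell (0.811% either way). There 4 members were higher at an unadjusted p under 0.05, and DESeq2 called 3 higher, where it called 3.28% of all genes tested. Both comparisons of mCAN10 share its 4 libraries, and the Allo libraries also served the comparison above.

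Igkc was at 81.5, 9.97, 2.06 and 5.22 CPM in the mCAN10 libraries. All lay above the Syn libraries (at most 0.815 CPM), and they overlapped with Allo, whose replicate 3 was at 0.580 CPM. The fold change was -2.97 ± 1.40 against Allo (adjusted p = 0.199) and 5.72 ± 1.70 against Syn (adjusted p = 0.132). Without mCAN10 replicate 1, the fold change against Allo was -5.10 (adjusted p = 0.0622). Jchain was at 32.9, 5.25, 0.956 and 2.11 CPM, with -2.89 ± 1.35 against Allo (adjusted p = 0.195) and 4.99 ± 1.65 against Syn (adjusted p = 0.181). Igha was at 161, 22.4, 4.68 and 11.4 CPM, with -2.96 ± 1.40 against Allo (adjusted p = 0.198) and 4.96 ± 1.57 against Syn (adjusted p = 0.161). For these 3 genes every mCAN10 library was above every Syn library, beside 10.8% of all genes tested, and edgeR fitted on these 2 groups alone called all 3 higher (adjusted p of 0.0288 for Igkc, 0.0338 for Jchain and 0.0314 for Igha). That fit called 11.2% of all genes tested.

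The smaller members split in the mCAN10 libraries. Iglc2 was at 0.656, 0, 0.0956 and 0.549 CPM and fell by 4.58 on the log2 scale against Allo (SE 1.28, adjusted p = 0.0259), although the groups overlapped. That call was lost without Allo replicate 2 (adjusted p = 0.0838), without mCAN10 replicate 2 (0.0716), 3 (0.0869) or 4 (0.0606), and with only these 2 groups fitted (0.0782). Iglc1 was at 0.733, 0.285, 0 and 0.962 CPM (-4.39 ± 1.65 against Allo, adjusted p = 0.0987). Ighg1 had 8, 2, 0 and 0 counts (-4.82 ± 1.82 against Allo, adjusted p = 0.1). Ighg2b had 197, 2, 0 and 2 counts, so its group level rested on replicate 1, at 7.60 CPM, and the sign of its difference from Allo (-0.15 ± 1.87) turned in 5 of the 8 fits that left out 1 library. Ighg2c had 7, 2, 0 and 8 counts against 521 and 484 in the upper Allo libraries, and without the filter its edgeR adjusted p against Allo was 0.0341.

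Ighm was at 49.4, 31.9, 29.9 and 41.8 CPM under mCAN10. These libraries lay below all Syn libraries, beside 8.05% of all genes tested, and overlapped with the upper Allo library at 31.8 CPM. The fold change was 1.04 ± 0.54 against Allo (adjusted p = 0.253) and -0.67 ± 0.54 against Syn (adjusted p = 0.652). Fitted on Syn and mCAN10 alone, the latter passed the test (-0.71, adjusted p = 0.0311). Ighd was at 1.74, 0.728, 0.191 and 1.37 CPM and rose against Allo by 2.79 ± 0.72 (adjusted p = 0.0165). That call was lost without Allo replicate 3 (adjusted p = 0.0543) or 4 (0.0522) and without mCAN10 replicate 1 (0.0566) or 4 (0.0505).

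Levels of the members overlapped between nintedanib-treated and water-treated mice. EdgeR called none of the 8 members in Nin against Allo_H, where 5.56% of all genes tested rose and 3.76% fell (9.31% either way). None had an unadjusted p under 0.05, and DESeq2 called none. Fitted on these 2 groups alone, edgeR called none of the 7 members tested and 0.579% of all genes tested. The groups overlapped for all 8, whereas 4.75% of all genes tested were higher and 3.2% lower without overlap. Igkc was at 12.6, 18.4, 139.5 and 77.0 CPM in Allo_H and at 2.73, 131, 7.85, 101 and 89.5 CPM in Nin (0.10 ± 1.24 on the log2 scale, adjusted p = 1). Igha was at 21.2, 40.1, 292 and 148 CPM in Allo_H and at 6.51, 70.6, 15.1, 184 and 118 CPM in Nin (-0.67 ± 1.23, adjusted p = 0.856). Jchain was at 4.76, 6.68, 55.7 and 30.2 CPM in Allo_H and at 1.95, 22.5, 2.96, 36.1 and 53.7 CPM in Nin (-0.06 ± 1.20, adjusted p = 1). In each group the libraries fell into high and low ones: Allo_H replicates 3 and 4 and Nin replicates 2, 4 and 5 were high for all 3 genes. With SEs of 1.20 to 1.24 on the log2 scale, changes of a few fold in either direction were not detectable.

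The labels of some libraries in this run mention 2 sequencing lanes (Allo_H replicates 1 and 2, Nin replicates 2, 3 and 5), and those of the others do not. Both Allo_H libraries with that note were the low ones. Within the libraries that carry it, the Igkc fold change was 2.30 (adjusted p = 0.599), and within those that do not it was -1.06 (adjusted p = 0.868). For Igha the values were 1.14 and -1.20, for Jchain 2.19 and -1.17, and for Ighm 1.45 and -0.53. The direction thus differed between the 2 sets of libraries, with 2 or 3 libraries in each arm and no member passing the test within either set. Without Nin replicates 1 and 3, the lowest of their group and left out after their values were seen, no member was called either (1 had an unadjusted p under 0.05).

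The rarer members had few counts and varied widely between libraries. Iglc1 was at 0, 0.318, 11.6 and 0.627 CPM in Allo_H and at 0, 1.48, 0.277, 3.73 and 7.03 CPM in Nin. Its fold change of -0.33 ± 1.36 became 2.91 without Allo_H replicate 3. Ighg1 had 0, 0, 52 and 4 counts in Allo_H and 0, 2, 0, 20 and 120 in Nin, and Ighg2b had 0, 0, 44 and 4 against 0, 228, 0, 16 and 55. Their fold changes were 1.00 ± 1.45 (adjusted p = 0.776) and 2.24 ± 1.95 (adjusted p = 0.545). Iglc2 stayed between 0 and 2.40 CPM in both groups (1.12 ± 1.15, adjusted p = 0.628). Ighm was at 28.2, 26.9, 62.9 and 29.3 CPM in Allo_H and at 16.4, 139.8, 20.8, 47.3 and 63.5 CPM in Nin (0.64 ± 0.51, adjusted p = 0.488), with Nin replicate 2 the highest of the run.

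The make-up of heavy chain classes varied from library to library, and the groups were not tested against each other. The counts of the 8 heavy chain constant genes, whose transcripts are 802 to 1493 bases long, numbered 191 to 18485 per library. In Syn, Ighm made up 93.7% to 97.0% of them. In Allo replicates 1, 2 and 4, Igha made up 89.9% (89.4% to 90.4%), 93.6% (93.2% to 93.9%) and 87.1% (85.1% to 88.8%). In Allo replicate 3 it was 8.90% (5.63% to 13.8%) of 191 counts, and Ighm was 81.7% (75.6% to 86.5%). The mCAN10 libraries ran from 13.5% Igha in replicate 3 to 73.0% in replicate 1, and the second run from 27.8% in Nin replicate 1 to 83.2% in Allo_H replicate 4. Among switched classes alone (IgG, IgA and IgE), IgA dominated in every library with at least 100 such counts, from 85.2% (83.4% to 86.9%) in Nin replicate 2 to 100% in Nin replicates 1 (96.8% to 100%) and 3 (98.8% to 100%).

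**Figure D3:**
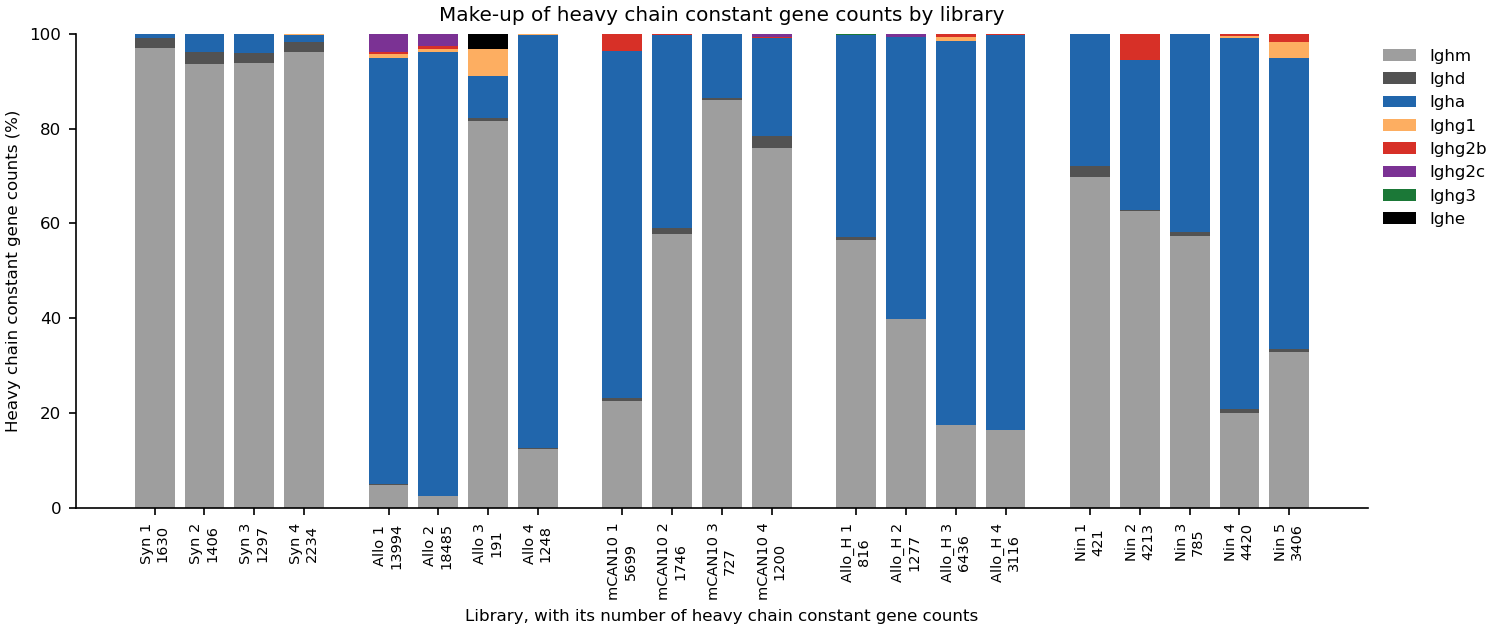
Share of each heavy chain constant gene among the heavy chain counts of a library (stacked bars, 0 to 100%), with the number of such counts under each bar. Ighm fills 93.7% to 97.0% of the Syn bars, and Igha fills 87.1% to 93.6% of the bars of Allo replicates 1, 2 and 4.

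Which IgG gene led depended on the library. Only 6 libraries had at least 100 IgG counts. Ighg2c, the gene of the C57BL-derived haplotype, held 73.5% (70.1% to 76.6%) and 69.3% (65.8% to 72.6%) of them in Allo replicates 1 and 2. Ighg2b held 92.9% (88.7% to 95.7%) in mCAN10 replicate 1 and 98.7% (96.3% to 99.6%) in Nin replicate 2. Ighg1 held 68.2% (61.0% to 74.6%) in Nin replicate 5 and 51.0% (41.4% to 60.5%) in Allo_H replicate 3. Ighg2c made up at most 4.90% of IgG counts in these last 4 libraries, although their mice also had B10.D2 marrow, and it had at most 10 counts in any library of the second run. Of these 4, mCAN10 replicate 1 (3.30%) was counted in the same run as Allo replicates 1 and 2. The second run was counted separately. For its libraries, a difference in annotation between runs cannot be told apart from one between groups.

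Light chain use was mostly kappa. Lambda genes made up 9.65% (8.97% to 10.4%), 9.0% (8.44% to 9.59%) and 8.67% (6.92% to 10.8%) of light chain counts in Allo replicates 1, 2 and 4. In Allo_H the share was 1.75% to 2.36% in replicates 1, 2 and 4 and 8.67% (7.67% to 9.79%) in replicate 3. Under mCAN10 it ran from 1.90% (1.41% to 2.57%) in replicate 1 to 24.0% (17.9% to 31.4%) in replicate 4, the latter of 150 counts. In Nin replicates 2 to 5 it ran from 2.17% (1.67% to 2.81%) to 10.1% (6.53% to 15.2%). The shares thus overlapped between Allo and mCAN10 and between Allo_H and Nin, and no share was formed for Syn, Allo replicate 3, mCAN10 replicate 3 and Nin replicate 1, which had under 100 light chain counts.

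Ighm went with Igkc across the libraries of the second run and not across those of the first, which alone held the Syn group. Across the libraries, the log2 CPM of Igkc correlated with that of Jchain (Pearson r of 0.99 over the 12 libraries of the first run and 0.96 over the 9 of the second) and of Igha (0.99 and 0.95). For Igkc with Ighm the values were -0.27 and 0.84, and for Igkc with Iglc2 they were 0.84 and 0.25. For Ighm with Iglc2 the second run gave 0.27. Within Allo, replicates 1 and 2 were the upper libraries for both Igkc and Ighm, and within mCAN10 replicate 1 was the highest for both. These points share library depth and group, and the values describe them only. Per kilobase of transcript, Ighm was at 36.5 to 47.1 CPM in Syn while Igkc was at 0.307 to 1.53, so a heavy chain was read there with almost no light chain. Counts of Igkc per Ighm count were 0.00233 to 0.0144 in Syn and 4.72 to 17.7 in Allo replicates 1, 2 and 4.

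**Figure D4:**
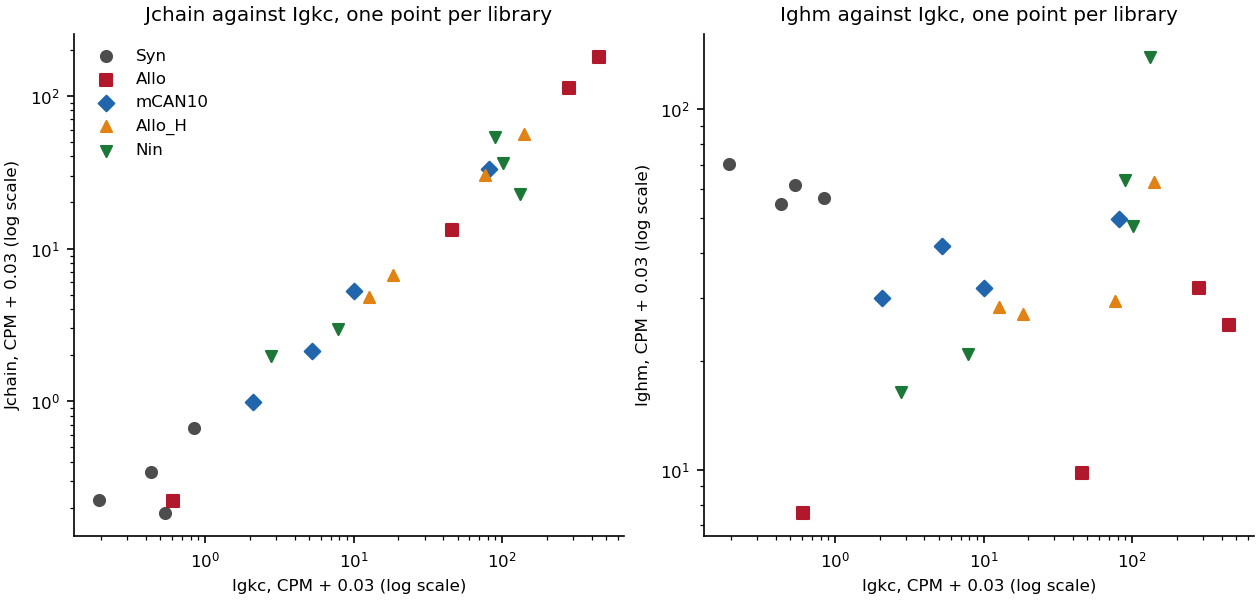
Jchain (left) and Ighm (right) against Igkc in CPM, with 0.03 added, on log axes, 1 point per library. Jchain rises with Igkc through all groups, whereas the 4 Syn libraries combine Igkc of at most 0.815 CPM with Ighm of 54.5 to 70.3 CPM.

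Variable segments had few counts in Syn. An antibody transcript carries a variable segment upstream of its constant part, so segment counts are a further reading of the same molecules. Summed over all heavy chain variable (Ighv) rows, Syn libraries had 1, 2, 0 and 0 counts beside 1581, 1317, 1217 and 2149 Ighm counts. Kappa variable (Igkv) rows summed to 7, 6, 1 and 2 counts. In Allo, Ighv rows summed to 3523, 5133, 9 and 247 counts and Igkv rows to 4280, 6484, 9 and 397. Under mCAN10 the Ighv sums were 1247, 204, 29 and 65. In the second run they were 88, 121, 824 and 497 in Allo_H and 24, 745, 37, 557 and 480 in Nin. Variable segments are a large family of near copies and differ between strains, so single rows are uncertain and BALB/c segments may have been counted less fully. That was not tested.

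The variable segments in use differed from library to library. Allo replicates 1 and 2 had 45 and 42 Ighv rows with at least 10 counts, led by Ighv1-72 with 8.402% and Ighv1-15 with 15.4% of the Ighv counts. In Nin replicate 2, Ighv2-9 alone held 43.4% of 745 Ighv counts, and Igkv2-112 and Igkv2-137 held 35.4% and 29.3% of 1298 Igkv counts. That library is also the one with most Ighm, where Ighg2b was nearly the whole of IgG, and where Igha per Igkc count was lowest outside Syn (0.537, against 1.32 to 2.39 elsewhere). In Allo_H replicate 1, Igkv5-48 held 58.6% of 116 Igkv counts. Among the 11 libraries with at least 100 Ighv counts, Ighv2-9 led Nin replicates 2 and 4, and no other Ighv segment led more than 1 library.

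Of the plasma cell markers followed by name, Pou2af1, Derl3 and Prdm1 rose in Allo against Syn and the other 5 did not pass the test. Pou2af1, a B lineage transcriptional coactivator, was at 0 to 0.156 CPM in Syn and at 1.97, 3.90, 0.0967 and 0.125 CPM in Allo, and rose by 4.79 ± 1.501 (adjusted p = 0.0272). That call was lost without Syn replicate 2 (adjusted p = 0.0667), 3 (0.0733) or 4 (0.0785) and without Allo replicate 2 (0.101). Derl3, a protein of endoplasmic reticulum quality control that is abundant in plasma cells, rose by 1.31 ± 0.40 (adjusted p = 0.0252), and lost that call without Syn replicate 2, 3 or 4 or Allo replicate 1 or 2 (0.0528 to 0.104) and with no filter (0.0721). Mzb1, a chaperone of antibody assembly, was at 3.49, 3.95, 1.35 and 0.500 CPM in Allo beside 1.89 to 2.55 in Syn (0.10 ± 0.57, adjusted p = 0.961). Tnfrsf17, the BCMA receptor of plasma cells, was at most 0.963 CPM in any library (-0.10 ± 0.79, adjusted p = 0.983). Xbp1, Irf4 and Sdc1, which other skin cells also express, were at 150 to 279, 7.01 to 31.2 and 325 to 875 CPM over all libraries and did not pass the test in Allo against Syn (adjusted p of 0.901, 0.978 and 0.470). Prdm1, the regulator of plasma cell fate that epidermis also uses, rose by 1.43 ± 0.33 (adjusted p = 0.0049) and was highest, at 112 CPM, in Allo replicate 4.

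**Figure D5:**
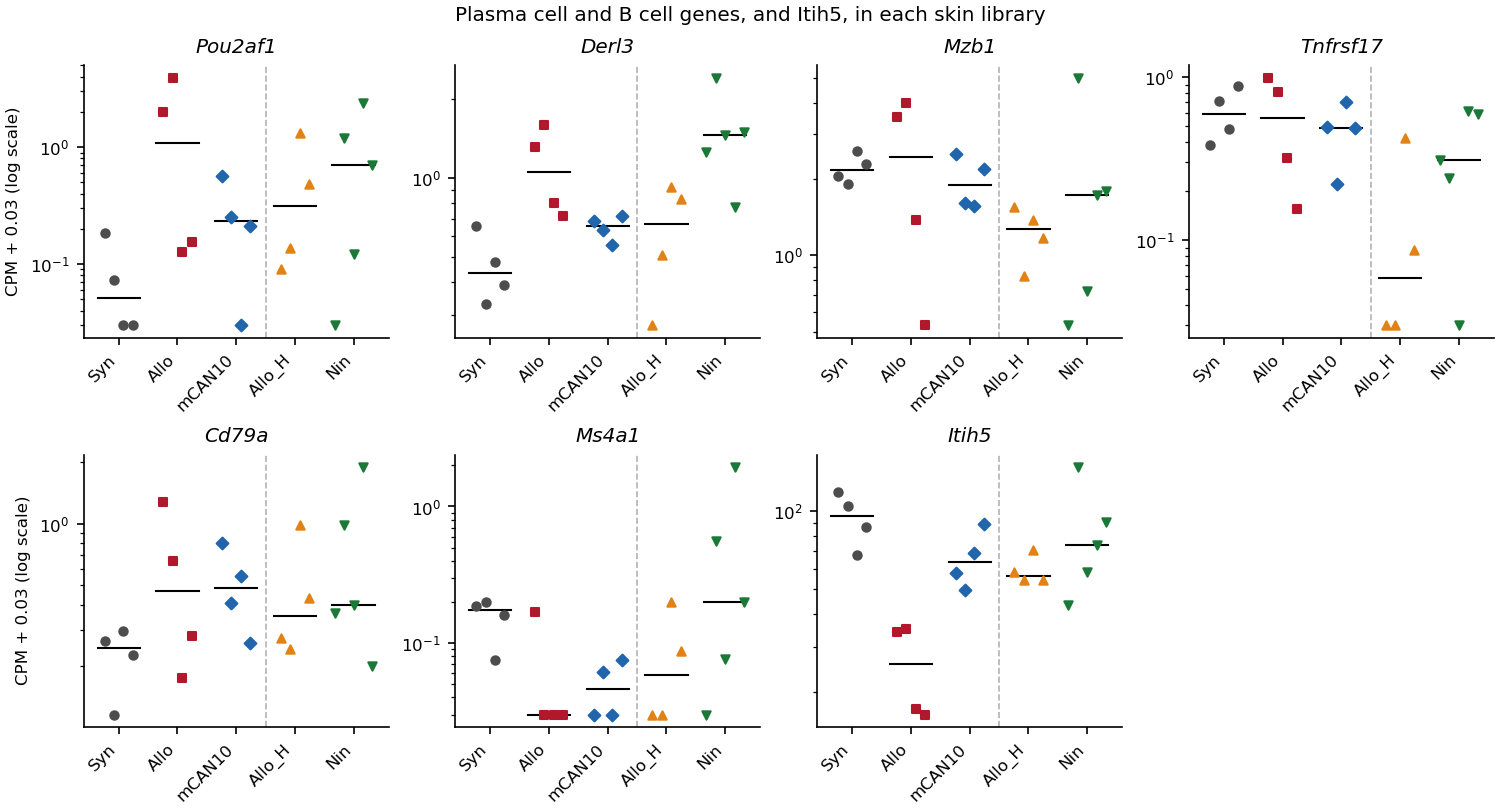
CPM, with 0.03 added, on log axes, of Pou2af1, Derl3, Mzb1, Tnfrsf17, Cd79a and Ms4a1 and of Itih5, 1 point per library, with the group median as a bar and a dashed line between counting runs. Pou2af1 is highest in Allo replicates 1 and 2 within the first run, Ms4a1 is highest in Nin replicate 4, and Itih5 is lowest in Allo within the first run.

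In a list of 17 plasma cell identity genes, all tested, 7 rose and none fell in Allo against Syn (median log2 fold change 0.30), while 1 was lower at edgeR's unadjusted p under 0.05 and DESeq2 called none lower. For this and the lists below, 13.8% of all genes tested rose and 8.8% fell in Allo against Syn by edgeR. It called 10.8% in mCAN10 against Allo, 0.811% in mCAN10 against Syn and 9.31% in Nin against Allo_H. DESeq2 called 27.6%, 15.5%, 3.28% and 14.9% in these 4 comparisons. Besides those named, Slamf7, a surface receptor also found on other immune cells, rose by 3.72 ± 0.71 (adjusted p = 0.00126), and Ell2, an elongation factor that promotes secreted antibody transcripts, by 0.95 ± 0.22 (adjusted p = 0.00468). Ell2 did not follow Igkc by library. It was at 24.3 to 25.5 CPM in Syn and at 45.4, 41.6, 51.3 and 54.1 CPM in Allo, where replicate 3 had Igkc at the Syn level. In the second run it was highest, at 78.1 CPM, in Nin replicate 1, the library with least Igkc. Slamf7 was also the 1 gene of the list to rise in mCAN10 against Syn (3.47 ± 0.71, adjusted p = 0.0262), a call lost without Syn replicate 1, 3 or 4 or mCAN10 replicate 1 or 2 (0.0581 to 0.126). Against Allo, mCAN10 libraries had 2 of the 17 lower: Ell2 fell by 1.07 (SE 0.22, adjusted p = 0.00478) and Prdm1 by 1.22 (SE 0.33, adjusted p = 0.0233). The Prdm1 call was lost without Allo replicate 4 (adjusted p = 0.123) or without mCAN10 replicate 2, 3 or 4 (0.0528 to 0.0811). Derl3 was the 1 gene of the list to pass in Nin against Allo_H, rising by 1.25 ± 0.39 (adjusted p = 0.0476). That call was lost without any 1 library of these groups other than Nin replicate 4 (adjusted p from 0.0504 to 0.127).

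Of 20 genes of the secretory pathway that antibody-producing cells load heavily, 5 rose and none fell in Allo against Syn (median 0.17), beside 13.8% and 8.8% of all genes tested. DESeq2 called 5 and 0, and none was lower at edgeR's unadjusted p under 0.05. The 5 were Edem1 (0.73 ± 0.12, adjusted p = 0.000394), Dnajb11 (0.42 ± 0.11), Pdia4 (0.57 ± 0.17), Hspa5 (0.52 ± 0.16) and Creld2 (0.48 ± 0.16), all general helpers of protein folding or disposal. Edem1 passed without any 1 library, but the other 4 did not pass with no filter (adjusted p from 0.0752 to 0.132). Of these 4, none passed without Allo replicate 2 (0.0576 to 0.124). Other single libraries also ended calls: Allo replicate 1 for Pdia4 (0.0669), Allo replicate 4 for Hspa5 and Creld2 (0.076 and 0.102), Syn replicate 2, 3 or 4 for Pdia4 (0.0511 to 0.0588), Syn replicate 3 or 4 for Hspa5 (0.074 and 0.0955), and any 1 Syn library for Creld2 (0.0525 to 0.0909). In mCAN10 against Syn 3 of them rose: Creld2 (0.76 ± 0.16, adjusted p = 0.0287), Edem1 (0.53 ± 0.12, adjusted p = 0.0397) and Hspa5 (0.72 ± 0.16, adjusted p = 0.0448). Those calls were lost without any 1 of the 8 libraries (adjusted p from 0.0574 to 0.292), except that Edem1 passed without Syn replicate 1. With no filter none of the 3 passed (0.094 to 0.187). The 3 genes were at 19.0 to 406 CPM in every library of the run, Syn included.

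Among mature B cell genes, Ms4a1, which encodes CD20, was at most 0.172 CPM outside Nin replicates 2 (0.530) and 4 (1.92). Cd79a, the antigen receptor's signalling chain that plasma cells keep in part, was at 0.0858 to 0.269 CPM in Syn and at 1.24, 0.624, 0.145 and 0.250 CPM in Allo (1.51 ± 0.75, adjusted p = 0.157). Of 23 B cell genes, 14 were tested, and in Allo against Syn 2 rose and 2 fell (median 0.10). These counts are near the share of all genes tested, of which 13.8% rose and 8.8% fell. Cd22, which other leukocytes can also express, rose by 3.74 ± 0.96 (adjusted p = 0.0089), Bank1 fell by 3.05 (SE 0.67, adjusted p = 0.00335) and Ebf1 fell by 1.48 (SE 0.35, adjusted p = 0.00583). EdgeR called none of the 14 in mCAN10 against Allo (2 higher and 1 lower at an unadjusted p under 0.05, DESeq2 2 and 0). It called none in Nin against Allo_H either (3 and 1 unadjusted, DESeq2 2 and 0).

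Genes of germinal centres and class switching were tested for 13 of 16. In Allo against Syn 3 rose (median 0.54), beside 13.8% of all genes tested: Cd40, Cd40lg and Ifng. Ifng, the cytokine that directs switching to IgG2 classes, rose by 4.57 ± 0.83 (adjusted p = 0.000884), and Cd40lg, the T cell signal for switching, by 3.55 ± 0.77 (adjusted p = 0.0031). Cd40lg was also higher in mCAN10 than in Syn (3.64 ± 0.76, adjusted p = 0.0287), a call lost without Syn replicate 2, 3 or 4 or mCAN10 replicate 1 or 2 (0.0634 to 0.137). Bach2, which restrains plasma cell differentiation, rose by 2.23 ± 0.40 in Nin against Allo_H (adjusted p = 0.00332). That call was lost when only these 2 groups were fitted (adjusted p = 0.0703). Bach2 was highest in Nin replicates 1 (18.5 CPM) and 3 (28.8 CPM), the libraries with least Igkc in that run. In Allo_H the order was the other way. Bach2 was at 3.87 and 4.28 CPM in replicates 3 and 4, which were high for Igkc, and at 2.69 and 1.64 CPM in replicates 1 and 2. A link between Bach2 and Igkc was not tested.

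Of 19 tested genes for signals that keep or attract plasma cells, 9 rose and 1 fell in Allo against Syn (median 1.40). Of all genes tested, 13.8% rose and 8.8% fell. Tnfsf13b (BAFF), a survival factor of B lineage cells, rose by 1.40 ± 0.40 (adjusted p = 0.0174; 0.0567 without Syn replicate 4 and 0.053 without Allo replicate 2), while its relative Tnfsf13 (APRIL) did not pass (0.35 ± 0.21, adjusted p = 0.251). Cxcl9 and Cxcl10, interferon-induced ligands of CXCR3, rose by 6.54 ± 1.01 (adjusted p = 0.000249) and 5.67 ± 0.80 (adjusted p = 0.000125), and the B cell attractant Cxcl13 by 3.89 ± 0.72 (adjusted p = 0.000977). Cxcl12, the ligand of CXCR4 that holds plasma cells in marrow, was lower in every Allo than every Syn library without passing the test (-1.19 ± 0.46, adjusted p = 0.0676). It did pass with DESeq2 (adjusted p = 0.0331), with edgeR on the same run alone (0.0172) or on these 2 groups alone (0.0271), and without Allo replicate 1 (0.0279), and the range over all alternatives was 0.0172 to 0.156. Ccl27a, a skin chemokine made by keratinocytes, fell by 2.14 (SE 0.41, adjusted p = 0.00136). Under mCAN10, Ccl27a was higher than in Allo (1.99 ± 0.41, adjusted p = 0.00488) and Cxcr4 lower (-1.26 ± 0.34, adjusted p = 0.0222). The Cxcr4 call was lost without Allo replicate 2 (adjusted p = 0.096) or mCAN10 replicate 2 (0.0748) or 3 (0.0838). In Nin against Allo_H, Tnfsf13 fell by 1.28 (SE 0.23, adjusted p = 0.00301), and with only these 2 groups fitted the adjusted p was 0.109. Its counts in this run were low, 23 to 31 per library in Allo_H and 6 to 19 in Nin. In the first run, which was counted separately, they were 151 to 392.

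Of 9 genes of antibody transport and antibody receptors, 6 rose and none fell in Allo against Syn (median 1.79), beside 13.8% and 8.8% of all genes tested. At edgeR's unadjusted p under 0.05, 1 was lower, and DESeq2 called 1 lower. Fcgr2b, the inhibitory IgG receptor, rose by 2.20 ± 0.37 (adjusted p = 0.000532), the activating receptor Fcgr4 by 3.98 ± 0.84 (adjusted p = 0.0026) and the cytosolic antibody receptor Trim21 by 1.79 ± 0.29 (adjusted p = 0.000327). Pigr, which carries polymeric IgA across epithelia, was at 1.43 CPM or less in every library. Its fold change was -1.71 ± 0.65 in Allo against Syn (adjusted p = 0.0672, and 0.0331 with DESeq2). In Nin against Allo_H, Fcgr2b fell by 1.58 (SE 0.34, adjusted p = 0.0091) and Trim21 by 0.87 (SE 0.26, adjusted p = 0.0428). With only these 2 groups fitted neither passed (0.102 and 0.208), and the Trim21 call was also lost without any 1 Allo_H library or without Nin replicate 2 or 3 (0.0501 to 0.135).

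T cell and macrophage markers were also higher in Allo than in Syn. The summed level of 12 T cell genes was 30.1 to 58.4 CPM in Syn and 89.5 to 216 CPM in Allo, with 10 of 12 higher, and that of 10 macrophage genes was 664 to 1307 and 1598 to 4534 CPM, with 6 of 10 higher. None of these genes was at 0 through a whole group. Allo replicate 3 was the lowest Allo library for T cells and above all Syn libraries for both lists (89.5 and 2772 CPM), although its Igkc, Jchain and Igha were at the Syn level. Under mCAN10 the T cell sum was 59.9 to 154 CPM and the macrophage sum 1428 to 2958 CPM, both highest in replicate 1, the library with most Igkc. In the second run the T cell sum was 64.8 to 133 CPM in Allo_H and 18.5, 45.7, 33.2, 147 and 83.4 CPM in Nin. The macrophage sum there was 1844 to 3717 CPM in Allo_H and 526, 985, 685, 2857 and 1655 CPM in Nin. EdgeR called none of the T cell genes and 1 macrophage gene, C1qa, lower in Nin against Allo_H, with 6 macrophage genes lower at an unadjusted p under 0.05 and 5 by DESeq2. Nin replicate 2, at 131 CPM of Igkc, was below every Allo_H library in both sums. The part of these cells in the immunoglobulin values was not tested.

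Tissue left on a skin piece can also bring antibody-producing cells. The sum of 7 lymph node stroma genes was 20.5 to 91.5 CPM in Syn and 49.8 to 185 CPM in Allo, with Cxcl13 the 1 of 3 tested that rose. Glandular epithelium genes, of which 3 of 8 were tested, summed to 14.7 to 39.9 CPM in Syn and 7.35 to 12.8 CPM in Allo, with Prlr lower. Of 8 tested genes of marrow and blood, edgeR and DESeq2 called none in Allo against Syn or in mCAN10 against Allo, and none had an unadjusted p under 0.05. In Nin against Allo_H, Alas2, an enzyme of haem synthesis in red cell precursors, rose, 5 were higher at an unadjusted p under 0.05 and DESeq2 called 4 higher. Their sum was 48.8 to 239 CPM in Allo_H and 47.6, 492, 56.8, 2286 and 72.0 CPM in Nin. Skeletal muscle genes summed to 15.3 CPM in Allo replicate 1 and 49072.5 CPM in Allo replicate 3, with 31660.1 to 46400.5 CPM in Syn. Keratinocyte genes were higher in Allo (48013 to 81002 CPM, 4 of 9 rising and 1 falling) than in Syn (18760 to 31579 CPM). The part of these in the immunoglobulin values was not tested.

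The 8 genes most like the members in both runs were found from the lower of 2 Pearson correlations of log2 CPM with the members' mean, over 12 and 9 libraries. Pou2af1 came first (0.93 and 0.94), ahead of Mup17 (0.82 and 0.86), Nostrin (0.83 and 0.82), Hfe (0.80 and 0.81), Mup9 (0.80 and 0.89), Slc9a9 (0.89 and 0.79), Lilra5 (0.79 and 0.79) and Wdr95 (0.88 and 0.78). Mup17 and Mup9 encode major urinary proteins and belong to a family of near copies, so their counts are uncertain. Mup17 was at 0 to 0.0895 CPM in Syn and at 0.734, 2.08, 0.0967 and 1.38 CPM in Allo, and rose by 5.37 ± 1.55 (adjusted p = 0.0177). The points share depth and group. The genes were picked for their likeness from tested genes with counts in both runs. The members, other immunoglobulin genes, predicted genes (Gm and a number) and clone names (ending in Rik) were left out of that search.

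For Ighm alone, a search made after its different course was seen, the most alike genes were Itih5 (0.92 and 0.95), Klhl13 (0.88 and 0.88), Sgce (0.87 and 0.92), Ebf1 (0.87 and 0.87), Dmtn (0.86 and 0.93), Accsl (0.87 and 0.85), Fam149a (0.85 and 0.91) and Ndn (0.85 and 0.88). Ebf1 is a transcription factor of B cells that fat and stromal cells also express. Like Ighm, 5 of the 8 fell in Allo against Syn (Itih5, Klhl13, Sgce, Ebf1 and Ndn): Itih5 by 1.88 (SE 0.33, adjusted p = 0.000747) and Ndn by 1.66 (SE 0.28, adjusted p = 0.000441). In mCAN10 against Allo, Itih5 (1.37 ± 0.33, adjusted p = 0.0115), Sgce (1.35 ± 0.31, adjusted p = 0.00886) and Ndn (1.87 ± 0.28, adjusted p = 0.000564) rose. Immunoglobulin genes, predicted genes and clone names were left out of this search too, so none of the 8 could be an immunoglobulin gene. Each of the 8 was chosen for its likeness, so these directions are no separate evidence. Beside them, the summed level of 8 dermal fibroblast genes was 5256 to 7017 CPM in Syn, 898 to 4989 CPM in Allo and 4105 to 10683 CPM in mCAN10, with 3 of 8 lower in Allo than in Syn and the same 3 (Dcn, Dpt and Pi16) higher in mCAN10 than in Allo. In the second run that sum was 1954 to 4402 CPM in Allo_H and 3804 to 10573 CPM in Nin. Within groups the order was mixed. The library with most Ighm had the highest fibroblast sum in Allo (replicate 1, 4989 CPM) and Allo_H (replicate 3, 4402 CPM). It had the lowest in Syn (replicate 4, 5256 CPM), mCAN10 (replicate 1, 4105 CPM) and Nin (replicate 2, 3804 CPM). The part of fibroblast genes in the Ighm values was not tested.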

How the data were processed

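Per the submitters' processing notes, reads were handled with FastQC, Trimmomatic, STAR and featureCounts on GRCm39; no source used here gives their versions or strand settings. Poly-A RNA (1 µg input) was sequenced from a library kit that does not mark strand, per the labels' protocols. The authors deposited raw counts per gene symbol, and every column belonged to 1 library of the series. Groups and replicate numbers were taken from the sample titles, which for mCAN10 differ from the description numbers 1, 3, 4 and 5. Members and gene lists were chosen with earlier results of these data known.

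Counts were analysed with edgeR 4.0.16 (filterByExpr minimum count 10, TMM, glmQLFit and glmQLFTest, 1 mean per group, all 21 libraries in 1 fit, Benjamini-Hochberg adjustment over 20462 genes). Tested on simulated data, 78 of 95 4-fold and 38 of 96 2-fold changes were recovered in Allo against Syn, 65 of 97 and 35 of 97 in mCAN10 against Allo, and 75 of 98 and 47 of 99 in Nin against Allo_H. No 2 libraries were identical. Shares carry 95% Wilson intervals and were formed from at least 100 counts. Genes were named by rule: the members; Ighd, Ighe, Iglc3 and Iglc4; a set list of plasma cell, B cell and survival genes; up to 3 called genes of each list with the lowest p in each comparison; and the 8 genes most like the members. Some genes of the set list are not reported here. The search for genes like Ighm and the fit without Nin replicates 1 and 3 were added after the data were seen. Alternatives were DESeq2 1.42.0, other size factors, no filter, fewer libraries or groups in the fit, replicate blocks and leaving out each library.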

Additional observations from a re-analysis of the deposited data

Results flagged for a closer look

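In groups of 4 or 5 libraries, 37 sets of member levels were checked for a single library far from the rest, by Dixon's test at the 95% level, and 10 had one. The test's chance rate of about 1 in 20 holds only for values with a normal spread. The levels checked were CPM, which were skewed for these genes, and all 10 marked libraries were high ones. The 10 therefore cannot be set against that rate, and they describe the libraries only. In the mCAN10 group, replicate 1 stood far above the other 3 libraries for Igkc (81.5 CPM), Jchain (32.9 CPM), Igha (161 CPM) and Ighg2b (7.60 CPM). In the Allo_H group, replicate 3 stood above the rest for Ighm (62.9 CPM), Iglc1 (11.6 CPM), Ighg1 (2.92 CPM) and Ighg2b (2.47 CPM). In the Nin group, replicate 5 stood apart for Ighg1 (6.80 CPM) and replicate 2 for Ighg2b (12.1 CPM). These genes come from the same libraries, so the 10 are not independent of each other.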

How the results depend on the processing

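The members called in Allo against Syn numbered 7 (6 higher, 1 lower) and 6 to 7 when 1 library was left out, but 4 (of 4 tested, and 25.4% of all genes tested) with only these groups fitted. In mCAN10 against Allo the count was 1 (10.8% of all genes tested were called). It was 2 without the filter (3.92% of all) or with libraries of the same run alone (18.8% of all). It was 0 with only the groups compared (15.8% of all), and 0 to 2 when 1 library was left out (6.15% to 10.4% of all). In mCAN10 against Syn it was 0 (0.811% of all genes tested were called), with 3 by DESeq2 (3.28% of all) and 4 of 4 tested with only the groups compared (11.2% of all). Between libraries of the same replicate number, correlations of deviations from the group mean ran from -0.23 to 0.35. Libraries of unlike numbers were not correlated, so this does not settle whether the numbers pair the libraries. With the replicate numbers as a block, fitted on the groups compared, 3, 0, 2 and 0 members were called in Allo against Syn, mCAN10 against Allo, mCAN10 against Syn and Nin against Allo_H. Those 4 fits called 18.5%, 8.4%, 3.67% and 0.203% of all genes tested. With the description numbers of mCAN10 as the block, 0 members were called against Allo, where that fit called 0 of 18684 genes. Against Syn, 1 was called (6.03% of all genes tested). The median Syn share of all counts was 0.000232% with Ighm left out of the sum.

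Some uncalled log2 fold changes turned sign, and the cause was not tested. With 1 library left out, Mzb1 ran from -0.31 to 0.42, Tnfrsf17 from -0.53 to 0.21, Irf4 from -0.47 to 0.31 and Xbp1 from -0.0236 to 0.13 in Allo against Syn. Likewise Ighg2b ran from -5.22 to 0.86 in mCAN10 against Allo and Ighg1 from -0.79 to 2.36 in mCAN10 against Syn. In Nin against Allo_H, Igkc ran from -0.30 to 0.83, Iglc1 from -1.19 to 2.91, Jchain from -0.62 to 0.71, Ighg1 from -1.42 to 4.24 and Igha from -1.30 to 0.13. The replicate block gave -0.24 for Mzb1 and -0.14 for Irf4 in Allo against Syn, and -0.79 for Igkc and 0.55 for Iglc1 in Nin against Allo_H. Xbp1 was at -0.00926 with no filter. Within libraries without the lane note, Igkc was -1.06, Ighm -0.53, Ighg1 -1.54 and Ighg2b -1.64, and within those with it Iglc1 was 4.07, Jchain 2.19 and Igha 1.14. Without Nin replicates 1 and 3, Iglc1 was 0.32 and Jchain 0.57. Counts of 0 to 7 in a library, as for most IgG values, do not resolve differences.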
